A study of Mus musculus with 8 samples.

Results

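The genes described here are 33 genes of endothelial cells and of the blood-nerve barrier, 33 of the 18193 genes that have a symbol of their own on the array. They were chosen by name, as genes of endothelial identity, barrier transport and lymphatic vessels, and were read from the 56 probe sets that the platform annotation assigns to them. RNA came from mouse sciatic nerve on 8 Affymetrix arrays, 2 in each of 4 groups. The groups were KO cut (c-Jun KO mice, piece distal to a transection at the sciatic notch, 7 days after surgery), KO uncut (the intact nerve of the opposite side in c-Jun KO mice), CTRL cut and CTRL uncut (the same nerves of mice labelled WT). All mice were adult and had 1 nerve cut, so uncut nerve is nerve of an operated animal. Each array held a 10 mm segment pooled from 4 or 6 mice. The labels give neither the driver of the deletion nor the strain; in published work from this field c-Jun is removed from Schwann cells, which would leave c-Jun in endothelial cells. The labels call the tissue Schwann cell, and in a description schwannoma, but Pecam1, Cdh5, Cldn5, Plvap and Vwf lay above the array median on 8 of 8 arrays, so the values are of whole nerve with its vessels.

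Endothelial cells line blood vessels and are recognised by junction proteins such as Pecam1 and Cdh5, by receptors for VEGF and angiopoietins, and by ETS and SOX transcription factors. In peripheral nerve, the capillaries inside the fascicle form the blood-nerve barrier together with the perineurium: tight junctions rich in claudin seal the gaps between cells, and transporters and efflux pumps control what crosses them. Distal to a nerve cut the barrier is known to become leaky while axons degenerate and macrophages enter.

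The median log2 value of an array was 6.59 to 6.65. How many arrays there were limits the precision. Across the genes tested below, arrays of the same group correlated at 0.9835 to 0.9892, and cut with uncut arrays at 0.8534 to 0.8939, which share platform and normalisation. Jun averaged 10.59 in KO cut and 11.92 in CTRL cut nerve, a difference of -1.33 (limma with Benjamini-Hochberg adjusted p = 0.00866). KO uncut replicate 1 stood apart in platelet markers, whose mean level was 9.32 there and between 7.48 and 8.38 on the other 7 arrays. In every group replicate 1 held more adipocyte RNA than replicate 2. The mean level of 5 adipocyte markers was 10.77 and 9.78 in KO cut and 10.81 and 9.74 in CTRL cut nerve. It was 12.04 and 11.56 in KO uncut and 12.00 and 11.34 in CTRL uncut nerve.

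Of the 33 genes, 31 passed a filter on dim probe sets (above the array median on at least 2 arrays), each represented by its brightest probe set. The other 2, Gja5, a connexin of arterial endothelium, and Prox1, the master transcription factor of lymphatic endothelium, lay below the 25th percentile of the array on 8 of 8 arrays, with Gja5 between 4.82 and 4.94 and the brightest Prox1 probe set between 4.62 and 4.98. They were not tested. A gene was called at a limma adjusted p under 0.05 over all 12093 genes tested.

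The cut lowered more of these genes than it raised. In KO nerve 15 of the 31 fell and 1 rose, where 17.8% of all tested genes fell and 18.1% rose. In CTRL nerve 9 fell and 1 rose, where 17.5% of all genes fell and 22.8% rose. The median change of the 31 genes was -0.45 in KO and -0.24 in CTRL nerve on the log2 scale, beside medians over all genes of -0.0013 in KO and 0.05 in CTRL nerve. The decrease was far from even: the 3 barrier transporters had a median change of -1.74 in KO and -2.09 in CTRL nerve, and no other role with more than 1 tested gene had a median beyond -0.55. In a piece of whole nerve, fewer endothelial cells and less RNA per endothelial cell cannot be told apart, nor can either from dilution by RNA of other cells.

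The calls overlapped between genotypes in 7 genes. Abcb1a, Cldn5, Flt1, Mfsd2a, Nos3 and Slco1a4 fell in both, and Ets1 rose in both. Erg, Esam, Flt4, Icam2, Kdr, Ptprb, Tal1, Tek and Vwf passed the test in KO nerve and not in CTRL nerve, and Angpt2, Lyve1 and Sox17 passed it in CTRL nerve and not in KO nerve. Whether the change itself differed was tested as an interaction, reported last, and no gene passed. In 16 of the 31 genes all 4 cut arrays lay below all 4 uncut arrays, an arrangement found in 23.8% of all tested genes, and in 2, Ets1 and Fli1, they lay above, as in 28.2% of all.

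**Figure D1:**
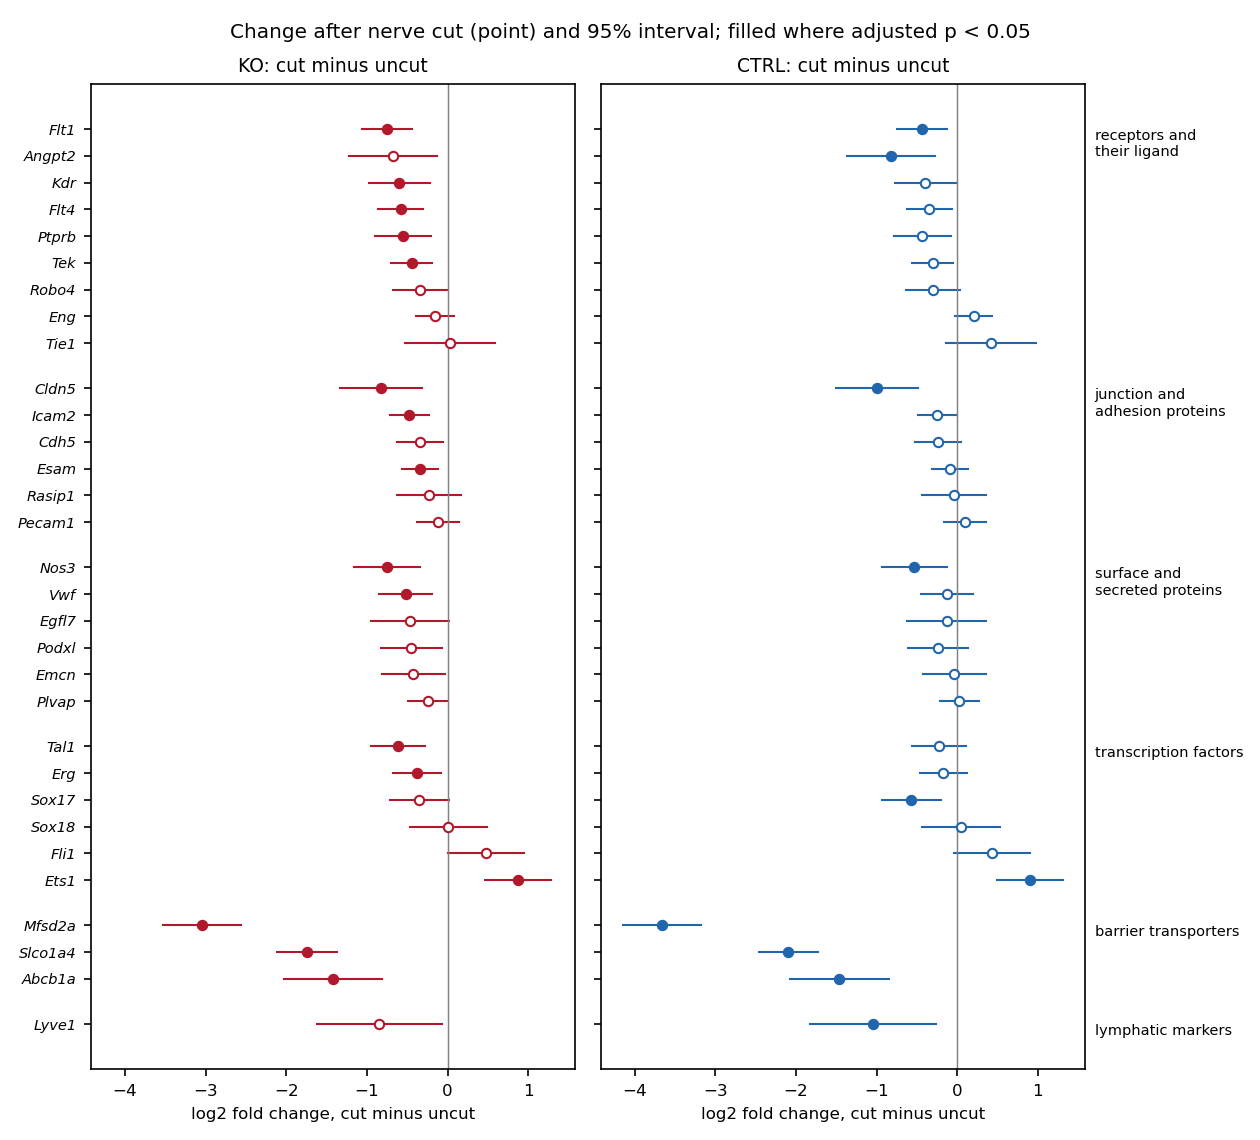
Log2 fold change, cut minus uncut, of the 31 tested genes in KO nerve (left, red) and CTRL nerve (right, blue), grouped by role; bars are 95% intervals from the limma fit (2 arrays per group) and filled points have an adjusted p under 0.05. Mfsd2a at -3.05 in KO and -3.66 in CTRL nerve, Slco1a4 and Abcb1a lie farthest left, and Ets1 is the filled point right of 0.

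Mfsd2a, the lysophospholipid transporter that restrains vesicle traffic across brain endothelium, had the lowest change of the 31 genes. Its level was 6.85 and 6.58 in KO cut and 9.63 and 9.90 in KO uncut nerve, against 6.43 and 5.89 in CTRL cut and 9.99 and 9.66 in CTRL uncut nerve. All uncut arrays thus lay more than 2 log2 units above all cut arrays, with no overlap. It fell by 3.05 (SE 0.21, 8.272-fold, adjusted p = 4.55e-05) in KO and by 3.66 (SE 0.21, 12.683-fold, adjusted p = 1.79e-05) in CTRL nerve, ranking 36th from the lowest of 12093 changes in KO and 28th in CTRL nerve. In cut nerve the probe set was below the array median on 3 of 4 arrays, a range in which RMA compresses differences. Mfsd2a is also known from liver and brown fat, and the adipocyte marker Adipoq fell by 1.20 in KO (adjusted p = 0.0228) and 1.09 in CTRL nerve (adjusted p = 0.0298). The part of fat cells in the change was not tested.

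Slco1a4, an organic anion transporter of brain capillaries, came next. It stood at 7.04 and 7.26 in KO cut and 8.69 and 9.10 in KO uncut nerve, against 7.05 and 6.95 in CTRL cut and 9.19 and 9.002 in CTRL uncut nerve. The 2 genotypes gave nearly the same levels in cut nerve, and every cut array lay below every uncut array. The change was -1.74 (SE 0.16, adjusted p = 0.00017) in KO and -2.09 (SE 0.16, adjusted p = 6e-05) in CTRL nerve.

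Abcb1a encodes P-glycoprotein, the efflux pump of barrier capillaries. Its levels were 9.27 and 8.69 in KO cut and 10.40 and 10.40 in KO uncut nerve, against 9.24 and 8.68 in CTRL cut and 10.69 and 10.15 in CTRL uncut nerve. In both genotypes replicate 1 of cut nerve was the higher one, as it was for the adipocyte markers, and both cut arrays lay below both uncut arrays. The fall was 1.42 (SE 0.26, 2.675-fold, adjusted p = 0.00499) in KO and 1.46 (SE 0.26, 2.753-fold, adjusted p = 0.00373) in CTRL nerve. A second Abcb1a probe set, which was higher in replicate 2 of CTRL cut nerve (8.38 in replicate 1, 8.72 in replicate 2), fell by 1.14 (adjusted p = 0.00899) in KO and 1.40 (adjusted p = 0.00312) in CTRL nerve.

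Cldn5, the main claudin of tight junctions in barrier endothelium, fell with the transporters. Its level was 9.35 and 9.65 in KO cut and 10.04 and 10.62 in KO uncut nerve, against 9.07 and 9.26 in CTRL cut and 9.97 and 10.35 in CTRL uncut nerve. Uncut replicate 2 was the highest array of each genotype, and the cut and uncut arrays did not overlap. The change was -0.83 (SE 0.22, adjusted p = 0.0213) in KO and -0.99 (SE 0.22, adjusted p = 0.00915) in CTRL nerve. The calls rested on single arrays: the KO change was -0.68 (adjusted p = 0.102) without KO cut replicate 1 and -0.53 (adjusted p = 0.109) without KO uncut replicate 2, and the CTRL change -0.90 (adjusted p = 0.0501) without CTRL cut replicate 1 and -0.80 (adjusted p = 0.0607) without CTRL uncut replicate 2.

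Because these 4 barrier genes fell together in both genotypes, the 250 bases before their transcription start are shown, from RefSeq on GRCm38.p6, written 5′ to 3′ along the gene. They lie at chr4:122961189-122961438 on the minus strand (Mfsd2a), chr6:141856221-141856470 on the minus strand (Slco1a4), chr5:8566841-8567090 on the plus strand (Abcb1a) and chr16:18776597-18776846 on the plus strand (Cldn5). Capitals mark matches on either strand to CTTTGA, the core read by the TCF/LEF factors of Wnt signalling, and to AACAAT, a SOX core.
Mfsd2a: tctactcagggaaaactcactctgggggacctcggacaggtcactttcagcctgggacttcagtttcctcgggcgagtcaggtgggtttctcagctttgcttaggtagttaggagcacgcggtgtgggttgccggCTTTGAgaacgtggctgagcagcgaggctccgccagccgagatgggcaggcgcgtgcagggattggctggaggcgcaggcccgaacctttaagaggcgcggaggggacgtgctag
Slco1a4: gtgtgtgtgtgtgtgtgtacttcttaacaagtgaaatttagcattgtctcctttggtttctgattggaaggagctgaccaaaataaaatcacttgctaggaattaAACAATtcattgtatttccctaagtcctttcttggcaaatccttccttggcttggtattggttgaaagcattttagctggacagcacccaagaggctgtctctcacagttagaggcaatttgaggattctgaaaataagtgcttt
Abcb1a: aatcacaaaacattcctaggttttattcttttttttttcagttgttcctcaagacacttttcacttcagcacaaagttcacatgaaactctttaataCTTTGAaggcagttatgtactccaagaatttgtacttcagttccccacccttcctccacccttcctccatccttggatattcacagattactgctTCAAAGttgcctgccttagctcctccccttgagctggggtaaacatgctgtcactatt
Cldn5: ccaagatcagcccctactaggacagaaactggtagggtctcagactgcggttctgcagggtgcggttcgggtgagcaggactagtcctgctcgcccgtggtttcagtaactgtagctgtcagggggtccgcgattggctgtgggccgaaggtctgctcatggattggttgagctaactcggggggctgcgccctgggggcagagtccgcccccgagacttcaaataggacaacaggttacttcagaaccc
The TCF/LEF core stood 115 bases before the start in Mfsd2a and 153 and 58 bases before it in Abcb1a, and the SOX core 145 bases before it in Slco1a4. The Cldn5 window held neither. Over 32851 windows of the same length, 13.8% held the TCF/LEF core and 9.42% the SOX core. Windows were available for 18 of the 33 genes (24 windows), of which 5 held the TCF/LEF core, 4 the SOX core, 1 the ETS core CCGGAA (12% of all windows) and 0 the AP-1 letters TGANTCA (6.75%). Such matches describe the letters and are not binding sites.

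Among the receptors and their ligand, 5 of 9 fell in KO nerve and 2 of 9 in CTRL nerve, where 17.8% and 17.5% of all tested genes fell. Flt1, a VEGF receptor that mostly acts as a decoy, fell in both. It stood at 8.51 and 8.50 in KO cut and 9.11 and 9.40 in KO uncut nerve, against 8.46 and 8.21 in CTRL cut and 8.74 and 8.81 in CTRL uncut nerve. On this brightest probe set all cut arrays lay below all uncut arrays, and KO uncut nerve held the highest values. The change was -0.75 (SE 0.13, adjusted p = 0.00405) in KO and -0.44 (adjusted p = 0.0323) in CTRL nerve. The CTRL call was lost without CTRL cut replicate 2 (-0.31, adjusted p = 0.164), CTRL uncut replicate 1 (-0.47, adjusted p = 0.0875) or CTRL uncut replicate 2 (-0.40, adjusted p = 0.132). Flt1 has 4 kept probe sets, whose changes lay between -0.46 and -0.75 in KO (2 of 4 called) and between -0.24 and -0.92 in CTRL nerve (3 of 4 called). On another of them KO cut replicate 2 (7.2481) lay above KO uncut replicate 1 (7.2458). There the CTRL uncut mean (7.74) lay above the KO uncut mean (7.57).

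Flt4, the receptor for VEGF-C found on lymphatic and some blood endothelium, was 7.41 and 7.51 in KO cut and 8.12 and 7.97 in KO uncut nerve, against 7.37 and 7.24 in CTRL cut and 7.53 and 7.78 in CTRL uncut nerve. It fell by 0.58 in KO nerve (SE 0.12, adjusted p = 0.00795) and had a change of -0.35 (adjusted p = 0.0529) in CTRL nerve. Kdr, the main signalling receptor for VEGF, was 8.36 and 8.71 in KO cut and 9.02 and 9.24 in KO uncut nerve, against 8.41 and 8.29 in CTRL cut and 8.58 and 8.91 in CTRL uncut nerve. It fell by 0.60 in KO nerve (adjusted p = 0.0242) and had a change of -0.40 (adjusted p = 0.0894) in CTRL nerve. For both receptors KO uncut nerve was highest, and KO and CTRL cut nerve overlapped for Kdr only. The Kdr call was lost without KO cut replicate 1 (-0.42, adjusted p = 0.124) or KO uncut replicate 2 (-0.49, adjusted p = 0.126).

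The angiopoietin axis comprises the receptor Tek, its phosphatase Ptprb, the co-receptor Tie1 and the ligand Angpt2, which opposes Tek signalling in most settings. Tek was 9.06 and 9.16 in KO cut and 9.52 and 9.59 in KO uncut nerve, against 8.97 and 9.12 in CTRL cut and 9.26 and 9.44 in CTRL uncut nerve, with changes of -0.45 (adjusted p = 0.0165) in KO and -0.30 (adjusted p = 0.0599) in CTRL nerve. Ptprb was 10.15 and 10.05 in KO cut and 10.74 and 10.55 in KO uncut nerve, against 10.18 and 9.75 in CTRL cut and 10.39 and 10.40 in CTRL uncut nerve, with changes of -0.55 (adjusted p = 0.0246) in KO and -0.43 (adjusted p = 0.0532) in CTRL nerve. Both thus passed the test in KO nerve and missed it in CTRL nerve, with all cut arrays below all uncut arrays. Tek lost its KO call without KO cut replicate 1 (-0.39, adjusted p = 0.0811) or KO uncut replicate 2 (-0.41, adjusted p = 0.0837). Ptprb lost its call without KO cut replicate 1 (-0.60, adjusted p = 0.0592), KO cut replicate 2 (-0.50, adjusted p = 0.111) or KO uncut replicate 1 (-0.46, adjusted p = 0.118). Both Ptprb probe sets that passed the filter fell in KO nerve, and neither in CTRL nerve.

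Angpt2 was 8.12 and 7.94 in KO cut and 8.91 and 8.51 in KO uncut nerve, against 8.23 and 7.87 in CTRL cut and 9.19 and 8.55 in CTRL uncut nerve. The levels in cut nerve of the genotypes overlapped, below those of all uncut arrays. It fell by 0.82 in CTRL nerve (SE 0.24, adjusted p = 0.0267) and had a change of -0.68 (adjusted p = 0.058) in KO nerve. Its CTRL call was lost without CTRL cut replicate 2 (-0.64, adjusted p = 0.137) or CTRL uncut replicate 1 (-0.50, adjusted p = 0.141). Tie1 had changes of 0.03 (adjusted p = 0.931) in KO and 0.42 (adjusted p = 0.203) in CTRL nerve, with CTRL cut arrays far apart at 7.86 and 7.15. Eng, a TGF-beta co-receptor of proliferating endothelium, had changes of -0.16 (adjusted p = 0.26) in KO and 0.20 (adjusted p = 0.149) in CTRL nerve. Robo4, a roundabout receptor of endothelium, had changes of -0.34 (adjusted p = 0.103) in KO and -0.30 (adjusted p = 0.138) in CTRL nerve.

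**Figure D2:**
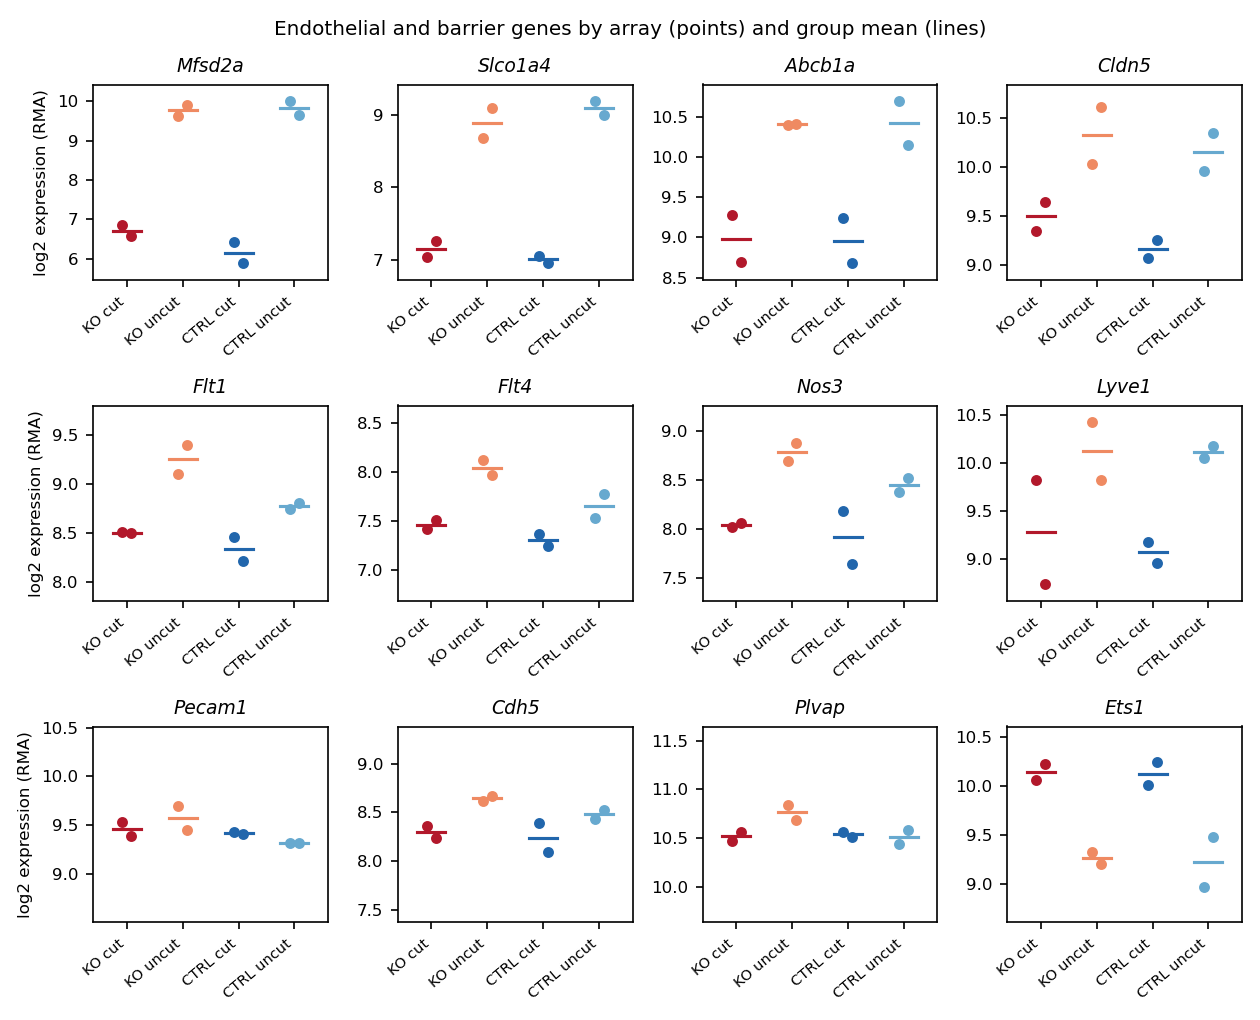
Log2 expression of 12 of the genes on each of the 8 arrays (points) with the group mean (line), in KO cut, KO uncut, CTRL cut and CTRL uncut nerve; the panels have different vertical ranges, each at least 2 log2 units high. Mfsd2a, Slco1a4, Abcb1a and Cldn5 are low in cut nerve of both genotypes, the points of Pecam1, Cdh5 and Plvap lie close together, and Ets1 is high in cut nerve.

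Of the other 5 tested junction and adhesion genes, Esam and Icam2 fell in KO nerve, and none passed the test in CTRL nerve. Among all tested genes, 17.8% fell in KO and 17.5% in CTRL nerve. Pecam1, the classical adhesion marker of endothelium, was 9.54 and 9.39 in KO cut and 9.70 and 9.46 in KO uncut nerve, against 9.43 and 9.41 in CTRL cut and 9.32 and 9.32 in CTRL uncut nerve. Its change was -0.12 in KO nerve (95% interval -0.38 to 0.14, adjusted p = 0.456) and 0.10 in CTRL nerve (-0.16 to 0.36, adjusted p = 0.513). Cdh5, the VE-cadherin of adherens junctions, was 8.36 and 8.23 in KO cut and 8.62 and 8.67 in KO uncut nerve, against 8.39 and 8.09 in CTRL cut and 8.43 and 8.53 in CTRL uncut nerve. Its change was -0.35 (-0.63 to -0.06, adjusted p = 0.0608) in KO and -0.24 (-0.52 to 0.05, adjusted p = 0.162) in CTRL nerve. For Cdh5 all cut arrays lay below all uncut arrays. The intervals of these 2 genes reach no lower than -0.63, whereas those of Mfsd2a reach no higher than -2.56. Other endothelial genes differed from these 2: in KO nerve the intervals of Kdr, Flt1 and Nos3 reach down to -0.97, -1.06 and -1.16. Sox18 and Tie1 had KO changes of 0.01 and 0.03.

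Esam, an adhesion molecule of endothelial tight junctions, was 9.74 and 9.74 in KO cut and 10.05 and 10.13 in KO uncut nerve, against 9.80 and 9.66 in CTRL cut and 9.79 and 9.85 in CTRL uncut nerve. It fell by 0.34 in KO nerve (adjusted p = 0.0261) and had a change of -0.09 (adjusted p = 0.476) in CTRL nerve, whose cut and uncut arrays overlapped. Icam2, a constitutive adhesion molecule for leukocytes, was 7.87 and 7.78 in KO cut and 8.39 and 8.21 in KO uncut nerve, against 7.80 and 7.70 in CTRL cut and 7.96 and 8.03 in CTRL uncut nerve. It fell by 0.47 in KO nerve (adjusted p = 0.0106) and had a change of -0.25 (adjusted p = 0.0981) in CTRL nerve. In both genes the KO uncut arrays were the highest of the 8. The Esam call was lost when any of the 4 KO arrays was left out, with changes of -0.35 and -0.34 without KO cut replicate 1 and 2 (adjusted p = 0.0878 and 0.102) and -0.39 and -0.30 without KO uncut replicate 1 and 2 (adjusted p = 0.0592 and 0.123), and in a fit on the 4 KO arrays only (adjusted p = 0.0537). The Icam2 call was lost without KO cut replicate 2 (-0.43, adjusted p = 0.0652) or KO uncut replicate 1 (-0.38, adjusted p = 0.0612). Rasip1, which acts with the small GTPase Rap in vessel junctions, had changes of -0.23 (adjusted p = 0.332) in KO and -0.04 (adjusted p = 0.878) in CTRL nerve.

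Of 6 surface and secreted proteins, 2 fell in KO nerve and 1 in CTRL nerve, where 17.8% and 17.5% of all tested genes fell. Nos3, the endothelial nitric oxide synthase, was 8.02 and 8.06 in KO cut and 8.69 and 8.88 in KO uncut nerve, against 8.19 and 7.64 in CTRL cut and 8.38 and 8.52 in CTRL uncut nerve. It fell by 0.75 in KO nerve (SE 0.17, adjusted p = 0.013) and by 0.53 in CTRL nerve (adjusted p = 0.0428), with no overlap between cut and uncut arrays. The KO call was lost without KO cut replicate 1 (-0.73, adjusted p = 0.052), KO cut replicate 2 (-0.77, adjusted p = 0.0516) or KO uncut replicate 2 (-0.66, adjusted p = 0.0736). The CTRL call was lost in more fits, namely without CTRL cut replicate 2 (-0.26, adjusted p = 0.193), CTRL uncut replicate 1 (-0.61, adjusted p = 0.0892), CTRL uncut replicate 2 (-0.46, adjusted p = 0.177), or any 1 KO array (-0.53, adjusted p between 0.0543 and 0.0596), and after median centring (-0.51, adjusted p = 0.0511) or in the 4 CTRL arrays alone (adjusted p = 0.0714).

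Vwf, the clotting protein stored in endothelial granules and in platelets, was 10.42 and 10.26 in KO cut and 10.88 and 10.84 in KO uncut nerve, against 10.61 and 10.22 in CTRL cut and 10.53 and 10.55 in CTRL uncut nerve. It fell by 0.52 in KO nerve (SE 0.14, adjusted p = 0.0226), while the CTRL groups overlapped (-0.13, adjusted p = 0.497). Of 5 platelet markers, Itga2b fell in KO nerve (-1.02, adjusted p = 0.0115), where 17.8% of all tested genes fell. None of the 5 was called in CTRL nerve. The list's mean level was 7.73 and 7.48 in KO cut and 9.32 and 7.71 in KO uncut nerve. The defining platelet marker Pf4 had a change of -0.74 (adjusted p = 0.15) in KO nerve. The part of platelets in the Vwf change was not tested. Without KO uncut replicate 1, where platelet markers were high, Vwf had a change of -0.50 and its call was lost. The call was also lost without KO cut replicate 2 (-0.44, adjusted p = 0.12) or KO uncut replicate 2 (-0.54, adjusted p = 0.0752).

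Plvap, the protein of diaphragms in fenestrated and leaky vessels, was 10.48 and 10.57 in KO cut and 10.84 and 10.69 in KO uncut nerve, against 10.57 and 10.52 in CTRL cut and 10.45 and 10.59 in CTRL uncut nerve. It had changes of -0.24 (adjusted p = 0.106) in KO and 0.02 (95% interval -0.22 to 0.27, adjusted p = 0.875) in CTRL nerve, so a rise of more than 0.27 lay outside the CTRL interval. The sialomucins Emcn, of capillaries and veins, and Podxl, of the luminal surface, and the secreted vessel protein Egfl7 were not called. Emcn had a change of -0.42 (adjusted p = 0.088) in KO and -0.04 (adjusted p = 0.884) in CTRL nerve. That of Podxl was -0.45 (adjusted p = 0.0647) in KO and -0.24 (adjusted p = 0.27) in CTRL nerve, and that of Egfl7 -0.47 (adjusted p = 0.119) in KO and -0.13 (adjusted p = 0.642) in CTRL nerve.

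Ets1 was the member that rose. This ETS factor, active in angiogenic endothelium and also abundant in lymphocytes, was 10.06 and 10.22 in KO cut and 9.32 and 9.21 in KO uncut nerve, against 10.01 and 10.25 in CTRL cut and 8.97 and 9.48 in CTRL uncut nerve. All cut arrays lay above all uncut arrays. It rose by 0.87 (SE 0.18, adjusted p = 0.00712) in KO and by 0.90 (SE 0.18, adjusted p = 0.00538) in CTRL nerve. Its 4 kept probe sets had changes between 0.46 and 0.89 in KO (2 of 4 called) and between 0.57 and 1.06 in CTRL nerve (3 of 4 called). Fli1, an ETS factor shared by endothelium and blood cells, was 9.64 and 9.51 in KO cut and 9.27 and 8.93 in KO uncut nerve, against 9.36 and 9.80 in CTRL cut and 8.94 and 9.36 in CTRL uncut nerve, with changes of 0.48 (adjusted p = 0.102) in KO and 0.43 (adjusted p = 0.125) in CTRL nerve.

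Leukocyte markers rose in the same comparisons as Ets1. The pan-leukocyte gene Ptprc rose by 1.43 (adjusted p = 0.00253) in KO and 1.46 (adjusted p = 0.00187) in CTRL nerve. Of 12 macrophage markers 9 rose and 1 fell in either genotype. Among all tested genes, 18.1% rose in KO and 22.8% in CTRL nerve. The defining markers Cd68 and Adgre1 rose by 3.48 and 1.84 in KO and 3.57 and 1.67 in CTRL nerve. The mean level of the 12 markers was 9.94 and 9.73 in KO cut and 8.83 and 8.49 in KO uncut nerve, against 9.88 and 9.96 in CTRL cut and 8.50 and 8.79 in CTRL uncut nerve. Of 8 lymphocyte markers 3 were tested. Gzmb and Klrd1, of cytotoxic cells, rose by 3.89 and 1.46 in KO and by 6.31 and 1.57 in CTRL nerve, while the T cell marker Cd3e, between 6.88 and 7.09 on the 8 arrays, was not called in either genotype. The mean level of the 3 was 7.86 and 8.10 in KO cut and 6.07 and 6.34 in KO uncut nerve, against 8.78 and 8.82 in CTRL cut and 6.22 and 6.07 in CTRL uncut nerve. The part of immune cells in the rise of Ets1 was not tested.

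The ETS factor that is largely restricted to endothelium, Erg, was 7.80 and 7.63 in KO cut and 8.22 and 7.97 in KO uncut nerve, against 7.64 and 7.81 in CTRL cut and 7.85 and 7.95 in CTRL uncut nerve. It fell by 0.38 in KO nerve at the edge of the threshold (adjusted p = 0.0495) and had a change of -0.17 (adjusted p = 0.309) in CTRL nerve. Its call held in 1 of 8 fits that leave out an array (adjusted p up to 0.233, without KO uncut replicate 1, where the change was -0.26) and in 3 of 9 other alternatives. With an adjusted p between 0.0564 and 0.0711 it was also lost without any 1 CTRL array, at 0.0657 without KO cut replicate 1 (-0.47) and at 0.227 without KO cut replicate 2 (-0.30).

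Sox17, an arterial SOX factor, was 9.14 and 8.82 in KO cut and 9.29 and 9.37 in KO uncut nerve, against 9.10 and 8.73 in CTRL cut and 9.54 and 9.43 in CTRL uncut nerve. It fell by 0.57 in CTRL nerve (SE 0.16, adjusted p = 0.0221) and had a change of -0.35 (adjusted p = 0.119) in KO nerve, with all cut arrays below all uncut arrays. The call was lost without CTRL cut replicate 2 (-0.39, adjusted p = 0.12), CTRL uncut replicate 1 (-0.51, adjusted p = 0.106) or CTRL uncut replicate 2 (-0.63, adjusted p = 0.0615), and a second probe set was not called. Sox18, its close relative, had changes of 0.01 (adjusted p = 0.972) in KO and 0.05 (adjusted p = 0.874) in CTRL nerve.

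Tal1, a factor of blood and endothelial precursors that mast cells also express, was 7.33 and 7.34 in KO cut and 8.14 and 7.77 in KO uncut nerve, against 7.31 and 7.12 in CTRL cut and 7.35 and 7.53 in CTRL uncut nerve. It fell by 0.62 in KO nerve (SE 0.14, adjusted p = 0.0134) and had a change of -0.23 (adjusted p = 0.246) in CTRL nerve. KO uncut nerve again stood highest. The call was lost without KO cut replicate 1 (-0.61, adjusted p = 0.0524), KO cut replicate 2 (-0.63, adjusted p = 0.0564) or KO uncut replicate 1 (-0.43, adjusted p = 0.0654). Of 7 mast cell markers, Mcpt4 (-1.07), Ms4a2 (-0.65) and Kit (-0.63) fell in KO nerve, and the defining marker Cpa3 had a change of -0.36 (adjusted p = 0.191). In CTRL nerve none of the 7 fell, and 1, Fcer1a, rose by 0.80 (adjusted p = 0.00988). Among all tested genes, 17.8% fell in KO nerve, and 17.5% fell and 22.8% rose in CTRL nerve. The mean level of the mast cell list was 9.52 and 8.99 in KO cut and 9.68 and 9.61 in KO uncut nerve, and its part in the Tal1 call was not tested.

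Lyve1, the hyaluronan receptor of lymphatic endothelium, was 9.82 and 8.74 in KO cut and 10.42 and 9.82 in KO uncut nerve, against 9.18 and 8.96 in CTRL cut and 10.05 and 10.17 in CTRL uncut nerve. The KO arrays were far apart. It fell by 1.05 in CTRL nerve (SE 0.33, adjusted p = 0.0396) and had a change of -0.84 (adjusted p = 0.0863) in KO nerve. The call was lost when any of the 4 CTRL arrays was left out: -1.16 and -0.93 without CTRL cut replicate 1 and 2 (adjusted p = 0.0868 and 0.151), and -1.11 and -0.98 without CTRL uncut replicate 1 and 2 (adjusted p = 0.106 and 0.144). It was also lost with the mean of both probe sets (-0.88, adjusted p = 0.113) and with a trended, robust variance (adjusted p = 0.0665). Lyve1 also marks resident macrophages around vessels, and 4 genes known from such cells did not move one way. Timd4, which lay above the array median on only 3 arrays, fell by 0.92 (adjusted p = 0.00272) in KO and 0.85 (adjusted p = 0.00332) in CTRL nerve. Mrc1 rose by 0.35 (adjusted p = 0.045) in KO and 0.45 (adjusted p = 0.0153) in CTRL nerve. Cd163 had changes of -0.50 (adjusted p = 0.276) in KO and -0.46 (adjusted p = 0.305) in CTRL nerve, and Folr2 of 0.28 (adjusted p = 0.476) in KO and 0.50 (adjusted p = 0.19) in CTRL nerve. Their part was not tested. Since Prox1 was below the filter, Lyve1 is the single tested gene grouped as a lymphatic marker among the 33. Flt4, given above with the receptors, is also found on lymphatic endothelium. Among 6 tested genes of a further lymphatic list, Pdpn, a lymphatic glycoprotein that fibroblasts and perineurium also make, rose by 0.56 in KO and 0.61 in CTRL nerve, and Reln, a secreted matrix protein, fell by 0.36 in KO and 0.51 in CTRL nerve. Nr2f2, a factor of venous and lymphatic identity, fell by 0.58 in CTRL nerve (adjusted p = 0.0136) and had a change of -0.40 (adjusted p = 0.0613) in KO nerve.

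Other vascular genes came from companion lists of the same pathways. Of 14 tested barrier transporters and junction genes outside the 33, 9 fell and 0 rose in KO nerve, and 8 fell and 1 rose in CTRL nerve. Over all tested genes, 17.8% fell in KO and 17.5% in CTRL nerve. The median change of the 14 was -0.71 in KO and -0.62 in CTRL nerve. Slc7a5, the large amino acid transporter of barrier endothelium, was 7.50 and 7.52 in KO cut and 9.37 and 9.48 in KO uncut nerve, against 7.66 and 7.64 in CTRL cut and 9.79 and 9.51 in CTRL uncut nerve, and fell by 1.92 (adjusted p = 2.69e-05) in KO and 2.00 (adjusted p = 1.88e-05) in CTRL nerve. The genotypes did not differ by a called amount. Apcdd1, a Wnt inhibitor that is itself a Wnt target in barrier endothelium, fell by 1.24 in KO and 1.16 in CTRL nerve, and Cldn12, a further claudin, by 0.88 in KO and 1.004 in CTRL nerve. The glucose transporter Slc2a1 fell by 0.84 (adjusted p = 0.000655) in KO and 1.04 (adjusted p = 0.000197) in CTRL nerve, and F11r, a junctional adhesion molecule, by 0.87 in KO and 0.70 in CTRL nerve. Slc2a1 and claudins are also made by the perineurium, whose markers fell too: the defining marker Cldn1 by 1.06 in KO and 0.95 in CTRL nerve, Itgb4 by 1.48 in KO and 1.71 in CTRL nerve, and Lypd2 by 1.59 in KO and 1.38 in CTRL nerve. Of 7 perineurial and fibroblast markers together, 4 fell and 1 rose in KO nerve, and 4 fell and 1 rose in CTRL nerve. The riser changed by 1.36 in KO and 1.61 in CTRL nerve. Among all tested genes, 18.1% rose in KO and 22.8% in CTRL nerve. The mean level of the 7 markers was 11.24 and 10.99 in KO cut and 11.63 and 11.70 in KO uncut nerve. It was 11.22 and 11.15 in CTRL cut and 11.71 and 11.58 in CTRL uncut nerve. The share of each layer was not tested.

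Among 5 tested leukocyte adhesion genes of endothelium, Ackr1, the chemokine receptor of venules, fell by 1.33 (adjusted p = 0.00059) in KO and 1.17 (adjusted p = 0.000903) in CTRL nerve. Cd93, an endothelial and myeloid surface protein, rose by 0.97 in KO and 0.95 in CTRL nerve. Selp, the P-selectin that slows rolling leukocytes, was 8.37 and 8.36 in KO cut and 7.95 and 8.05 in KO uncut nerve, against 8.74 and 8.58 in CTRL cut and 7.72 and 7.80 in CTRL uncut nerve. It rose by 0.37 (adjusted p = 0.0253) in KO and 0.90 (adjusted p = 0.000421) in CTRL nerve, and the difference between these changes, -0.53, was not called (adjusted p = 0.358). Icam1 rose by 0.44 (adjusted p = 0.00568) in CTRL nerve and had a change of 0.24 (adjusted p = 0.067) in KO nerve.

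Of 20 further endothelial genes, 6 fell and 1 rose in KO nerve, and 7 fell and 3 rose in CTRL nerve. Over all tested genes, 17.8% fell and 18.1% rose in KO nerve, and 17.5% fell and 22.8% rose in CTRL nerve. Ecscr, an endothelial sialomucin-like surface protein, was 8.78 and 8.80 in KO cut and 10.39 and 10.45 in KO uncut nerve, against 9.05 and 8.93 in CTRL cut and 10.38 and 10.43 in CTRL uncut nerve, and fell by 1.63 (adjusted p = 2.13e-05) in KO and 1.42 (adjusted p = 3.25e-05) in CTRL nerve. Klf2, the flow-responsive transcription factor, fell by 0.95 in KO and 0.77 in CTRL nerve, the caveolar protein Cav1 by 0.76 in KO and 0.83 in CTRL nerve, and Fabp4, a lipid carrier of capillaries and fat cells, by 0.66 in KO and 0.66 in CTRL nerve. The adhesion molecule Mcam rose by 0.65 in KO and 0.77 in CTRL nerve, and the arterial ligand Efnb2 rose by 0.79 in CTRL nerve (adjusted p = 0.0335), with a change of 0.38 (adjusted p = 0.257) in KO nerve. Of 17 tested angiogenic ligands and tip cell genes, 3 rose and 4 fell in KO nerve, and 4 rose and 3 fell in CTRL nerve, near the shares of all tested genes. Aplnr, the apelin receptor of sprouting vessels, rose by 1.29 in KO and 1.70 in CTRL nerve, and the chemokine receptor Cxcr4, shared by tip cells and leukocytes, by 2.62 in KO and 2.40 in CTRL nerve, whereas the ligand Vegfc fell by 0.72 in KO and 1.12 in CTRL nerve. Of 11 mural cell markers, 6 fell and 1 rose in KO nerve and 5 fell and 1 rose in CTRL nerve. Their median change was -0.62 in KO and -0.52 in CTRL nerve. Des was the 1 that rose, by 2.77 in KO and 2.71 in CTRL nerve. The pericyte marker Rgs5 had changes of 0.14 (adjusted p = 0.402) in KO and 0.16 (adjusted p = 0.312) in CTRL nerve.

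**Figure D3:**
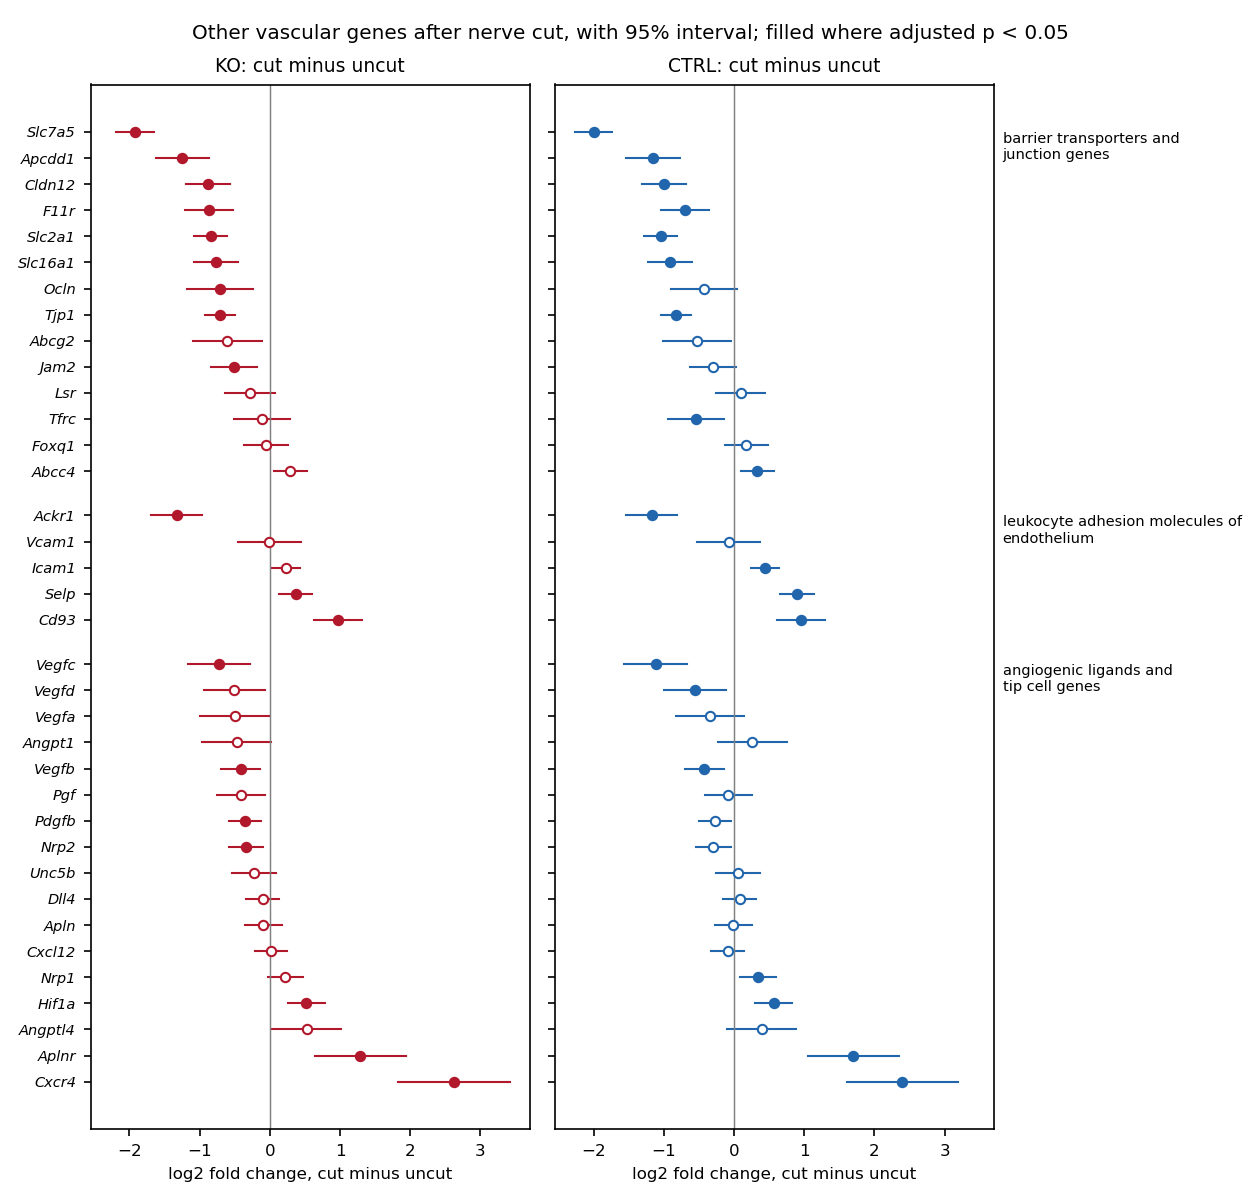
Log2 fold change, cut minus uncut, of vascular genes outside the 33, in KO nerve (left, red) and CTRL nerve (right, blue), by list; bars are 95% intervals and filled points have an adjusted p under 0.05. Slc7a5 leads the barrier list at -1.92 in KO and -2.00 in CTRL nerve, Ackr1 falls while Cd93 and Selp rise, and Cxcr4 and Aplnr lie farthest right.

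Whether the c-Jun mutation changes these genes in injured nerve was asked by comparing KO cut with CTRL cut nerve. None of the 31 genes was called (1.09% of all tested genes were). At an unadjusted limma p under 0.05 there was 1 (beside 1041 of all 12093 genes), Mfsd2a. Its difference was 0.56 (95% interval 0.07 to 1.04, unadjusted p = 0.0296, adjusted p = 0.475), with both KO cut arrays above both CTRL cut arrays. Cldn5 had a difference of 0.33 (-0.17 to 0.84, adjusted p = 0.827), and the other 29 lay between Emcn at -0.21 and these 2. The median difference was 0.06, beside -0.01 over all genes, but it was -0.04 without CTRL cut replicate 2 and 0.20 without CTRL cut replicate 1, so its sign was not settled. In 5 genes, Flt1, Flt4, Cldn5, Mfsd2a and Tal1, both KO arrays lay above both CTRL arrays, an arrangement that 14.5% of all tested genes show, and in 0 they lay below, as in 20.1% of all. The intervals do not show that the genotypes are equal.

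In uncut nerve, again none of the 31 was called, nor was any of the 12093 genes (0%). At an unadjusted limma p under 0.05 there were 8 of the 31, all higher in KO uncut nerve, and 322 of all genes. They were Tal1 (0.51, unadjusted p = 0.00827), Flt1 (0.48, 0.00751), Flt4 (0.39, 0.0121), Kdr (0.39, 0.0455), Icam2 (0.30, 0.021), Eng (0.29, 0.021), Esam (0.27, 0.0253) and Plvap (0.25, 0.0454), each with an adjusted p of 1. The Flt1 value is that of its brightest probe set; its other 3 kept probe sets had differences of 0.28, 0.17 and -0.17, each with an unadjusted p above 0.1 in the fit on probe sets. The difference was positive in 25 of 31 genes and in 7397 of all 12093, with a median of 0.20, beside 0.03 over all genes. In 16 genes both KO arrays lay above both CTRL arrays (17.9% of all tested genes) and in 1, Sox17, below (9.25%). The 3 barrier transporters lay on the other side of 0, with differences of -0.20 for Slco1a4, -0.06 for Mfsd2a and -0.02 for Abcb1a.

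**Figure D4:**
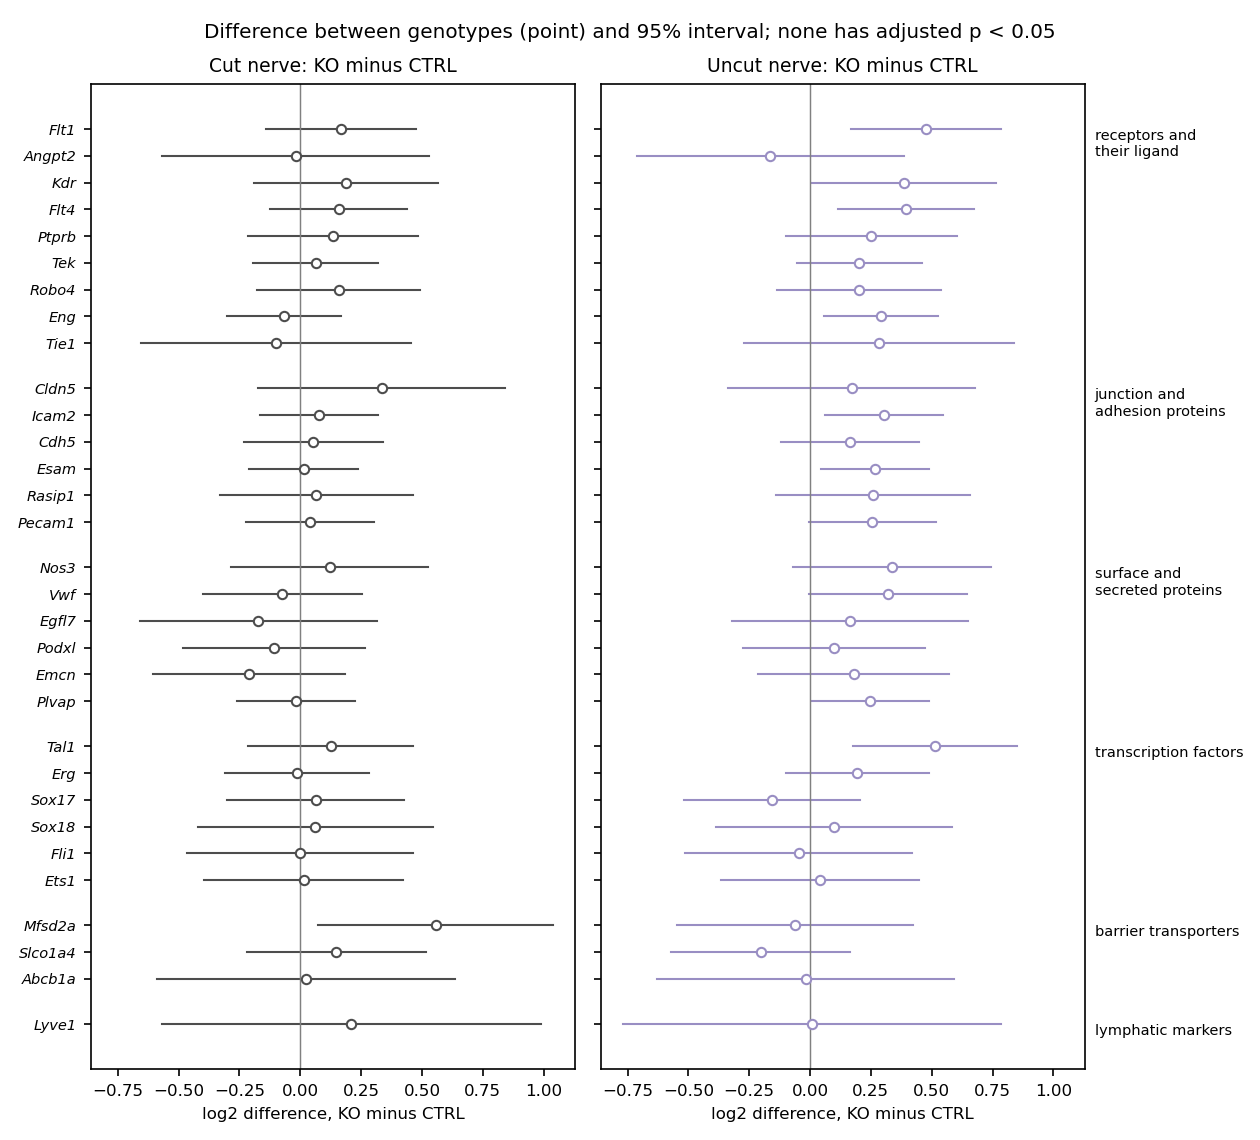
Log2 difference, KO minus CTRL, of the 31 tested genes in cut nerve (left, grey) and uncut nerve (right, purple), by role; bars are 95% intervals and open points mark that none had an adjusted p under 0.05. In uncut nerve 25 of 31 points lie right of 0, with Tal1 at 0.51 and Flt1 at 0.48 farthest right, and in cut nerve Mfsd2a lies farthest right at 0.56.

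Companion lists differed in how they lay between KO uncut and CTRL uncut nerve, without any call. The 20 further endothelial genes had a median difference of 0.04 (15 of 20 positive) and the 14 barrier transporters and junction genes one of -0.02 (6 of 14 positive), both near the 0.03 of all genes and below the 0.20 of the 31 genes. The 17 angiogenic genes had a median of 0.09 (13 of 17 positive) and the 5 leukocyte adhesion genes one of 0.13 (5 of 5 positive). All 11 mural cell markers had a positive difference, with list means of 10.74 and 10.65 in KO uncut and 10.39 and 10.61 in CTRL uncut nerve. The same 11 were positive in cut nerve, at 10.52 and 10.53 in KO cut and 10.40 and 10.28 in CTRL cut nerve. All 7 tested mast cell markers were positive in uncut nerve, with list means of 9.68 and 9.61 in KO uncut and 9.36 and 9.31 in CTRL uncut nerve. All 5 tested platelet markers were positive too, at 9.32 and 7.71 in KO uncut and 8.38 and 7.88 in CTRL uncut nerve, where the KO mean rests on replicate 1. Whether the amount of vessel in the pooled segments differed was not tested. The median difference of the 31 genes was 0.17 without KO uncut replicate 1, and 0.17 to 0.26 over all alternatives run.

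**Figure D5:**
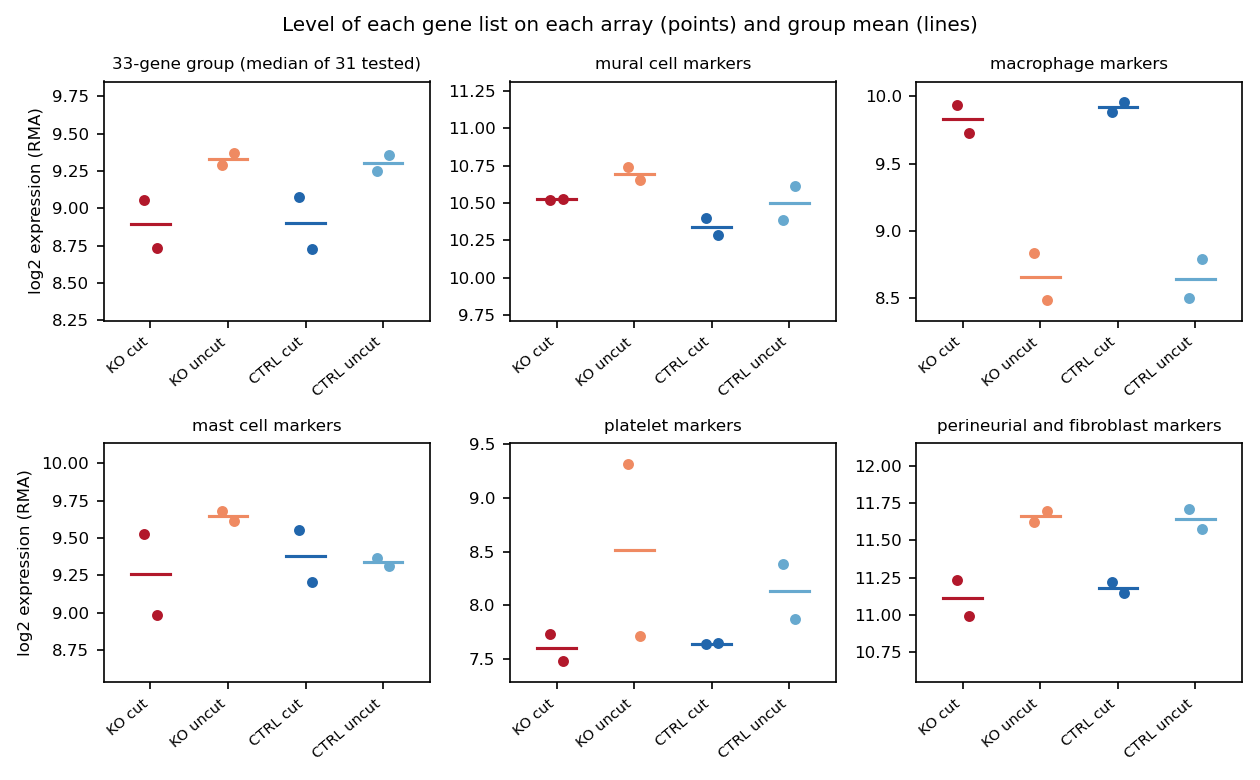
Median log2 level of the 31 tested genes and mean log2 level of 5 marker lists on each of the 8 arrays (points) with the group mean (line), in KO cut, KO uncut, CTRL cut and CTRL uncut nerve; the panels have different vertical ranges. Macrophage markers are high in cut nerve, perineurial and fibroblast markers are low there, and the platelet markers of KO uncut replicate 1 stand at 9.32.

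Whether the response to the cut depended on genotype was tested as the interaction, the KO change minus the CTRL change. None of the 31 genes was called (0.165% of all tested genes were). At an unadjusted limma p under 0.05 there was 1 (beside 731 of all 12093 genes), Eng, at -0.36 (95% interval -0.69 to -0.03, adjusted p = 0.741). In the limma fit on probe sets, a second Eng probe set had -0.49 (unadjusted p = 0.00704, adjusted p = 0.411). A second Ets1 probe set had -0.35 (unadjusted p = 0.03, adjusted p = 0.742), against -0.03 for the brightest one. The change was more negative in KO nerve in 23 of 31 genes and in 7308 of all 12093, and the median interaction was -0.20, beside -0.05 over all genes. Since all 4 groups enter this term, it holds the higher levels of KO uncut nerve given above as well as the levels of cut nerve. Tal1 and Vwf had interactions of -0.39 each (adjusted p = 0.952 and 0.921) and Flt1 one of -0.31 (adjusted p = 0.984). The barrier transporters were positive: Mfsd2a at 0.62 (-0.07 to 1.30, adjusted p = 0.9), Slco1a4 at 0.35 (-0.17 to 0.87, adjusted p = 0.997) and Abcb1a at 0.04. The genes that passed the test in 1 genotype are therefore not shown to respond differently in the other.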

How the data were processed

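The deposited table holds log2 expression of 45101 probe sets on 8 arrays, which the authors made with RMA and the package affy, per the submitters' processing notes. Versions, build, detection calls and scan dates were not used here. RMA corrects background, equalises the distribution of values between arrays and summarises probes, so it removes a shift common to all genes and compresses dim values. RNA was labelled with biotin for 1-colour arrays. The values were used as deposited.

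Probe sets were named from the platform annotation (34958 with 1 symbol, 932 with several, 9211 with none; only the first kind was used, and 34754 of them matched the RefSeq gene table by gene number, with 0 symbols changed). Probe sets above the array median on at least 2 arrays were kept, and the brightest represents the gene. With R 4.3.3 and limma 3.58.1 a model with 4 group means was fitted over the 8 arrays (4 residual and 3.59 prior degrees of freedom), and p-values, two-sided, were adjusted by Benjamini-Hochberg over 12093 genes in each of 5 contrasts. Second probe sets were adjusted over all kept probe sets. The fit was run on simulated data with noise independent between arrays. That run checked the size of the estimates and held no deviations shared between arrays of the same number. Intervals are at 95% and cover single genes.

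The 33 genes and 12 companion lists were chosen with earlier results of these data known. All 33 are accounted for; other genes named are from the up to 4 called per list and contrast with the highest absolute change, defining markers and Jun, except Ptprc, Timd4, Cd163, Mrc1, Folr2 and the uncalled values of genes called in the other genotype, which were named after their values were seen. Per the series' design text each group's arrays are separate pools, and nothing says whether arrays of the same number share mice. The deviations of replicate 1 correlated between groups at 0.023 to 0.34 over the 6 pairs of groups, 5 of them above 0.1. With only 2 numbers and no label that ties them to mice, the block was kept as an alternative. Promoter windows end at the transcription start. Alternatives covered the filter, the choice of probe set, centring, variance model, array weights, the replicate block, fits on 4 arrays, and fits that leave out an array.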

Additional observations from a re-analysis of the deposited data

How the results depend on the processing

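Up to 18 alternatives were run for a result (17 for the interaction, which has no fit on 4 arrays), and 0 called values changed sign. The filter at the 75th percentile leaves 24 of the 31 genes and gives no value for Erg, Flt4, Icam2 and Tal1, and medians were not recomputed on 4 arrays. The count of called genes depended on single arrays: with 1 array left out it ranged from 9 to 17 in KO nerve, against 16 with all arrays, and from 5 to 9 in CTRL nerve, against 10. It was 9 without KO cut replicate 1, 9 without KO cut replicate 2 and 10 without KO uncut replicate 2. In CTRL nerve it was 6 without CTRL cut replicate 2, 6 without CTRL uncut replicate 1 and 5 without CTRL uncut replicate 2. Fewer arrays leave fewer degrees of freedom. Under the other alternatives the counts were 12 to 19 in KO and 9 to 13 in CTRL nerve. Calls held in every alternative run for Mfsd2a, Slco1a4, Abcb1a and Ets1 in both genotypes and for Flt1 and Flt4 in KO nerve. With the replicate number as a block, 19 genes were called in KO nerve and 13 in CTRL nerve: Angpt2, Egfl7, Emcn and Lyve1 were gained and Erg lost (adjusted p = 0.051) in KO nerve, and Kdr, Ptprb and Tek were gained in CTRL nerve. Of the genes called in 1 genotype only, Angpt2, Lyve1, Kdr, Ptprb and Tek were then called in both. Genotype differences and the interaction gave 0 calls among the 31 genes under every alternative. Over all genes tested, the alternatives gave 12 to 174 calls for genotype in cut nerve (132 in the fit reported), 0 to 9 in uncut nerve (0), 0 to 44 for the interaction (20), 2744 to 4979 for the cut in KO nerve (4348) and 3394 to 5543 in CTRL nerve (4877).

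The median change of the 31 genes lay between -0.49 and -0.43 in KO and between -0.33 and -0.20 in CTRL nerve. The median genotype difference in cut nerve had no settled sign: it was -0.04 without CTRL cut replicate 2 and 0.20 without CTRL cut replicate 1. In uncut nerve it stayed between 0.17 and 0.26. With 2 arrays per group, genes with wide spread between replicates, such as Lyve1, can miss the test at changes as large as -0.84.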
